A study of Mus musculus with 2 samples.

Results

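The genes described here are 10 mouse genes that carry iron into, through and out of an erythroid cell. They were chosen by symbol, for their known roles. All 10 were found, out of 43346 Ensembl genes in each gene table, and they had 47 annotated transcripts in the transcript tables. By role they are the genes of transferrin iron uptake (Tfrc, Tfr2, Slc11a2 and Steap3), the mitoferrins that import iron into mitochondria (Slc25a37 and Slc25a28), the storage chains of ferritin with the receptor that delivers ferritin to the lysosome (Fth1, Ftl1 and Ncoa4) and the exporter (Slc40a1).

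Polyadenylated RNA was sequenced from erythroblasts, the nucleated precursors of red cells, sorted as Ter119+ cells from mouse fetal liver at embryonic day 14.5. The single group holds 2 libraries, numbered by the labels as biological replicates, with males and females pooled and no genetic change or treatment named. They come from separate biosamples under the same donor entry, and biological and technical differences between them cannot be told apart. With no condition to compare, the results are levels, transcript shares and the difference between these 2 libraries.

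Transferrin-bound iron enters an erythroblast through the transferrin receptor, is reduced in the endosome, crosses the endosomal membrane and is taken mainly to mitochondria, where heme is made. Iron that is not used is held in ferritin shells built of heavy and light chains, and ferroportin releases iron from the cell. Several of these mRNAs carry an iron responsive element, a short stem and loop bound by the iron regulatory proteins when iron is scarce: in a 5′ untranslated region it holds back translation, and in a 3′ untranslated region it protects the mRNA from decay.

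The elements were located in the GENCODE M21 transcripts of mm10 and are shown because they are the regulatory letters that several of these mRNAs are known for. The search asked for a C, then NNNNN, the loop CAGTGN and NNNNN pairing with the first 5 bases, with G-U pairs allowed, on the sense strand of each transcript. It was the single motif searched. All 5 pairs were found in 0.628% of 141767 reference transcripts, and in at least 1 transcript of 4 of the 10 genes, against 1.70% of protein-coding genes. With 1 mismatch allowed it was found in 5.16% of transcripts and in 6 of the 10 genes, against 13.1% of protein-coding genes. Each sequence is printed 5′ to 3′ as DNA on the gene's strand, with the 6 loop bases in capitals. The 17 bases of the element are printed with 6 more on each side, and the positions given cover all 29 bases. Distances to the coding region are counted from the 17 bases. The Fth1 element is at chr19:9982732-9982760 on the plus strand, in exon 1 of Fth1-201, in the 5′ untranslated region 115 bases before the coding region. The Ftl1 element is at chr7:45459779-45459807 on the minus strand, in exon 1 of Ftl1-201, in the 5′ untranslated region 153 bases before the coding region. The Slc40a1 element is at chr1:45925465-45925493 on the minus strand, in exon 1 of Slc40a1-201, in the 5′ untranslated region 207 bases before the coding region. The 4 Tfrc elements lie in exon 19 of Tfrc-201, in the 3′ untranslated region, on the plus strand at chr16:32631219-32631247, chr16:32631598-32631626, chr16:32631663-32631691 and chr16:32631710-32631738. The Slc11a2 element is at chr15:100395153-100395181 on the minus strand, in exon 16 of Slc11a2-205, in the 3′ untranslated region 40 bases after the coding region, and it was found only with the mismatch allowed.
Fth1: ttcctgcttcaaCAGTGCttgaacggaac
Ftl1: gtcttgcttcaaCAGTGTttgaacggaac
Slc40a1: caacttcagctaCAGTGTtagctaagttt
Tfrc, element 1: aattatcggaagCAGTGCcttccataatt
Tfrc, element 2: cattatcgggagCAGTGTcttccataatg
Tfrc, element 3: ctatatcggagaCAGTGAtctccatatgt
Tfrc, element 4: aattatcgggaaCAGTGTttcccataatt
Slc11a2: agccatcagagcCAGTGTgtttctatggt
The first 5 bases before and after the loop pair fully in Fth1, Ftl1, Slc40a1 and 3 of the Tfrc elements. The second Tfrc element has 4 Watson-Crick pairs and 1 G-U pair, and the Slc11a2 element has 2 of each. The sixth gene found with a mismatch was Slc25a28, in reference transcripts that are not among those quantified here. Tfr2, Steap3, Slc25a37 and Ncoa4 had no match, which says only that these letters are not in their reference transcripts.

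**Figure D1:**
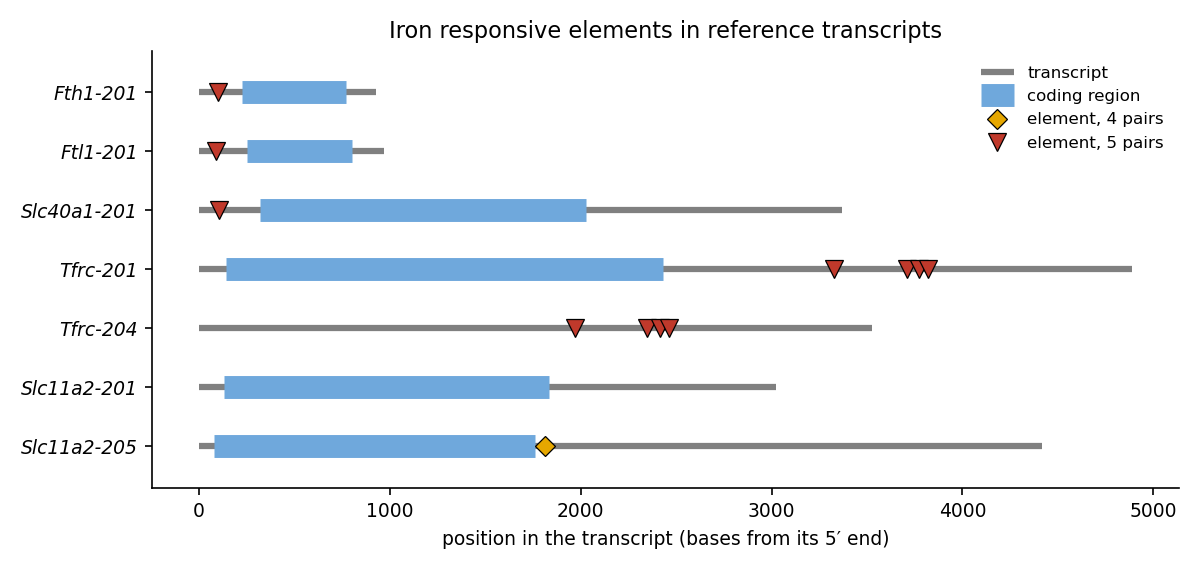
Positions of iron responsive elements in 7 reference transcripts, in bases from the 5′ end of each transcript. Grey lines are transcripts, blue boxes coding regions, red triangles elements with all 5 pairs and the yellow diamond the Slc11a2 element with 1 mismatch. The elements of Fth1, Ftl1 and Slc40a1 stand before the coding region and those of Tfrc-201 and Slc11a2-205 after it, while Tfrc-204 holds the 4 Tfrc elements with no annotated coding region.

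The libraries held 51190552 and 44256272 expected counts, and globin transcripts took 86.0% of TPM in library 1 and 84.4% in library 2. TPM, the share of all transcripts that a gene takes after correction for length, lets genes be set side by side. The part of GC content in the levels of different genes was not tested. All 8 erythroid markers reached 1 TPM in both libraries, and 0 of 5 markers of earlier progenitors did, against 20.0% of 21474 protein-coding genes. With so few markers, 0 of 5 is not far from that share. Kit had 0.07 and 0.02 TPM. Of other cell types, 5 of 12 macrophage, 3 of 9 hepatocyte and 2 of 5 megakaryocyte markers reached 1 TPM, each above that share. The highest of each list were C1qc at 4.07 and 7.02 TPM, Apoa1 at 6.01 and 8.05 TPM and Gp9 at 8.32 and 10.31 TPM. Tfrc, Tfr2 and Ncoa4, described below, had levels near these. The part of other cells in the levels of the 10 genes was not tested.

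The 10 genes summed to 8351.59 and 8341.93 TPM, which was 5.97% and 5.36% of the TPM outside the globin genes. At 1 TPM or more in both libraries were 9 of the 10, against 20.0% of 21474 protein-coding genes, and Slc40a1 was the exception. At 10 TPM or more were 4, against 5.84% of protein-coding genes, and at 100 TPM or more were 3, against 0.829%. The 3 are the ferritin chains and Slc25a37. Storage took 96.8% ± 0.0757 of the summed TPM (SD, n = 2), mitochondrial import 2.60% ± 0.190, transferrin iron uptake 0.594% ± 0.115 and export 0.00563% ± 0.000843.

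Ferritin mRNA stood far above every other step. Fth1, the heavy chain that oxidises iron, had 4377.58 and 3917.46 TPM (4148 ± 325, SD, n = 2), on 310149 and 217837 counts. Ftl1, the light chain that aids iron core formation, had 3695.38 and 4155.07 TPM (3925 ± 325), on 187288 and 167068 counts. They ranked 7 and 8 among protein-coding genes. Their order differed between the libraries: the ratio of Fth1 to Ftl1 was 1.18 in library 1 and 0.943 in library 2, so the 2 chains did not differ beyond their spread.

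Fth1 lies at chr19:9980598-9985098 on the plus strand, with 1 annotated transcript in the tables, a coding one of 866 bases (929 in the reference). Ftl1 lies at chr7:45457944-45459884 on the minus strand and had 5 transcripts. The coding transcript Ftl1-201, which carries the element shown above, held 11.9% and 11.6% of the gene's TPM. A transcript of 604 bases held 77.4% and 71.8%, and one of 710 bases held 9.62% and 16.6%. These were matched to the reference by length alone, to the retained-intron transcript Ftl1-206 and the processed transcript Ftl1-203, so their class is less sure than that of the others. Only 116 of the 574 words of 31 bases in Ftl1-206 occur in none of the other 4, so most reads of this gene fit several of its transcripts. Counting coding transcripts alone, Fth1 stood 9.99 times above Ftl1 in library 1 and 8.15 times in library 2. With the 1 Fth1 transcript a coding one, that choice could lower only Ftl1.

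Ftl1 has near-identical copies, and reads divided between them and Ftl1 are uncertain. Ftl1-ps1, which shares 63.5% of its 31-base words with Ftl1, had 26.0 and 26.4 TPM, and Ftl2-ps and Gm15590 had at most 1.12 TPM in either library. Adding these rows left the Fth1 to Ftl1 ratio at 1.18 and 0.937.

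Ncoa4, the receptor that brings ferritin to the autophagosome, had 6.93 and 6.94 TPM (6.94 ± 0.00707), on 2497 and 1874 counts. The gene lies at chr14:32159865-32179855 on the plus strand. The libraries had nearly the same level, assigned to different transcripts. Ncoa4-206, a transcript annotated for nonsense-mediated decay, held 86.6% of Ncoa4 TPM in library 1 and 9.88% in library 2, and the coding transcript Ncoa4-202 held 7.39% and 78.6%. A shorter coding transcript, Ncoa4-207, held 0% and 11.6%. The first 2 share most of their sequence: 140 of 4002 words in Ncoa4-206 and 73 of 4035 words in Ncoa4-202 occur in no other Ncoa4 transcript of the tables. By that assignment, which rests on few distinguishing words, coding Ncoa4 was 0.920 TPM in library 1 and 6.25 TPM in library 2. Ncoa4 also has a processed pseudogene, Gm6768, with 127 and 55.9 counts, which shares 96.6% of its words.

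**Figure D2:**
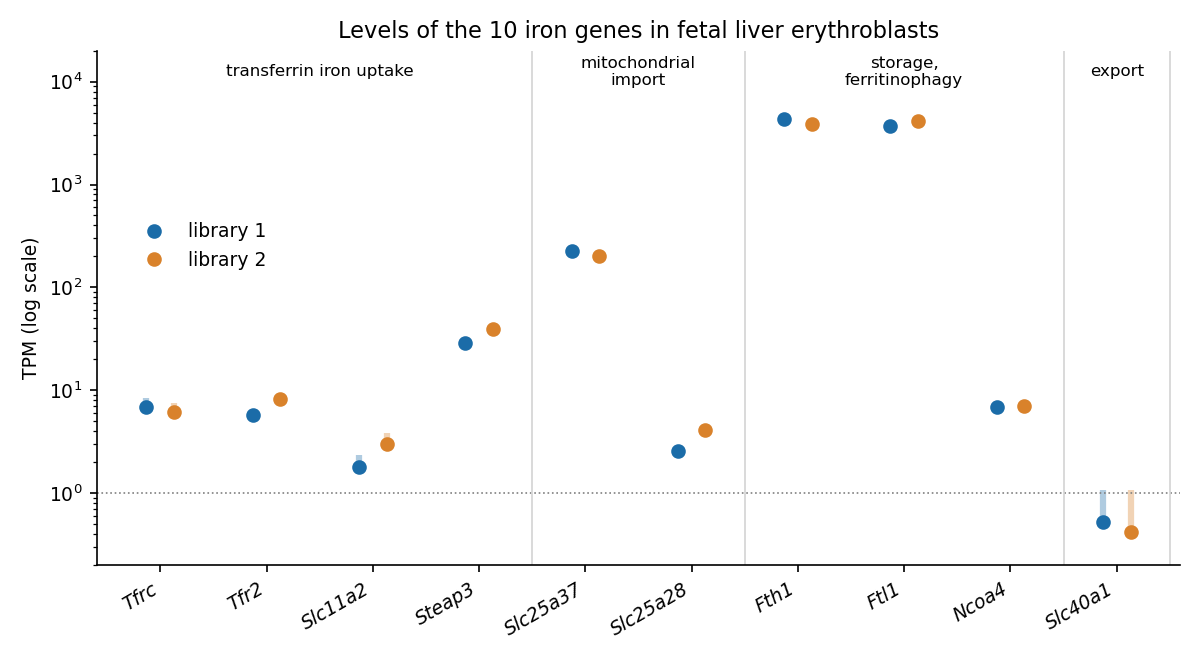
Level of each gene in TPM on a log axis, library 1 in blue and library 2 in orange, grouped by role. Faint bars are the deposited interval bounds, whose confidence level is not given in the sources used here, and the dotted line marks 1 TPM. The plotted TPM can lie outside them: Fth1 in library 1 had 4377.58 TPM against bounds of 4328.66 and 4359.17. Fth1 and Ftl1 stand at 3695 to 4378 TPM, and Slc40a1 is the single gene below 1 TPM in both libraries.

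The mitoferrins were strongly unequal. Slc25a37, mitoferrin 1, the main mitochondrial iron importer of erythroid cells, had 225.78 and 201.64 TPM (214 ± 17.1) and ranked 104 among protein-coding genes. Slc25a28, mitoferrin 2, the form found in most tissues, had 2.56 and 4.06 TPM (3.31 ± 1.06), on 344 and 426 counts. The ratio of Slc25a37 to Slc25a28 was 88.2 in library 1 and 49.7 in library 2, a mean of 68.9 ± 27.2, and the ranges of the 2 genes did not overlap. Slc25a37 lies at chr14:69241848-69285112 on the minus strand, and Slc25a28 at chr19:43663801-43674881 on the minus strand.

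More than one transcript class made up Slc25a37. Slc25a37-204, annotated for nonsense-mediated decay, held 59.6% and 61.1% of its TPM, and the coding Slc25a37-201 held 32.2% and 36.8%. By expected counts, with no length correction, the order turned round: Slc25a37-201 had 28723 and 22844 counts and Slc25a37-204 had 27275 and 19495. Only 31 of 4144 words in Slc25a37-201 and 29 of 2182 in Slc25a37-204 occur in no other Slc25a37 transcript of the tables. With coding transcripts alone Slc25a37 had 89.1 and 75.4 TPM and stood 34.8 and 18.6 times above Slc25a28. Slc25a28 had 1 transcript in the tables, a coding one, so that choice could lower only Slc25a37.

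Transferrin iron uptake was led by the reductase and not by the receptors. Steap3, which reduces iron in the endosome, had 28.45 and 39.07 TPM (33.8 ± 7.51), on 6333 and 6089 counts. Its range lay above those of the receptors and of the transporter Slc11a2 in both libraries. Steap3 lies at chr1:120190757-120272705 on the minus strand, and its 5 transcripts are coding. Steap3-205 held 41.5% ± 9.10 of its TPM (SD, n = 2) and Steap3-204 held 31.1% ± 4.26, while by counts Steap3-204 led with 40.9% and 37.5%. Steap3-201 held 17.3% and 3.39% of TPM, and Steap3-202 held 9.21% and 16.9%.

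The 2 transferrin receptors had similar levels. Tfrc, the receptor that brings in transferrin, had 6.90 and 6.13 TPM (6.52 ± 0.544), on 2254 and 1614 counts. Tfr2, which binds transferrin less tightly and takes part in iron sensing, had 5.70 and 8.14 TPM (6.92 ± 1.73), on 1552 and 1729 counts. The ratio of Tfrc to Tfr2 was 1.21 in library 1 and 0.753 in library 2, so their order differed between the libraries. Tfrc had the lowest GC content of the 10 genes, 42.1%, and Tfr2 one of the highest, 58.2%. Tfrc lies at chr16:32608920-32632794 on the plus strand and Tfr2 at chr5:137569840-137587481 on the plus strand.

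Most Tfrc signal fell to a transcript with no annotated coding region. Tfrc-204, a retained-intron transcript of 3527 bases, had 3.88 and 4.92 TPM, or 56.2% and 80.3% of the gene. The full-length coding Tfrc-201, of 4890 bases, had 1.76 and 0.80 TPM, or 25.5% and 13.0%, and the coding Tfrc-202 held 13.1% and 6.66%. Tfrc-204 and Tfrc-201 both contain the 4 elements shown above, so transcripts with the elements held 81.7% and 93.3% of Tfrc TPM. Of the words of Tfrc-204, 326 of 3497 occur in no other Tfrc transcript of the tables. Coding Tfrc alone was 3.03 and 1.21 TPM, which set its ratio to Tfr2 at 0.532 and 0.149. Tfr2 had 1 transcript in the tables, a coding one, so counting coding transcripts alone could lower only Tfrc.

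Slc11a2, the transporter that carries reduced iron across the endosomal membrane, had 1.79 and 3.0 TPM (2.40 ± 0.856), on 561 and 567 counts. It lies at chr15:100387898-100425072 on the minus strand. Slc11a2-205, the transcript with the 3′ element found with 1 mismatch, held 23.0% and 32.4% of its TPM and 30.7% and 56.0% of its counts. Slc11a2-201, in which no match was found, held 77.0% and 31.9% of TPM. Their sequences differ over long stretches: 2707 of 4385 words in Slc11a2-205 and 1257 of 2935 in Slc11a2-201 occur in no other Slc11a2 transcript of the tables. A short coding transcript, Slc11a2-203, held 0% and 24.2% of TPM on 0 and 32.2 counts.

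Slc40a1, which encodes ferroportin, was the lowest of the 10 genes. It had 0.52 and 0.42 TPM (0.47 ± 0.0707), on 80 counts (exact Poisson 95% interval 63.4 to 99.6) and 73 counts (57.2 to 91.8). The deposited posterior mean TPM was higher, 0.75 and 0.73, and the deposited upper bounds reached 1.07 and 1.06 TPM, so its place below 1 TPM is not firm. It lies at chr1:45908068-45926523 on the minus strand. Its coding transcript with the 5′ element, Slc40a1-201, held 23.2% and 37.3% of its TPM, and Slc40a1-202, a retained-intron transcript that holds the element too, 27.4% and 37.3%. Slc40a1-205, a coding transcript of 370 bases, held 49.4% and 24.0% on 5.68 and 1.81 counts. Transcripts with the element thus held 50.6% and 74.6% of TPM but 92.9% and 97.3% of counts.

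Macrophages of the fetal liver also express Slc40a1. Over 12 macrophage markers the summed level was 17.4 TPM in library 1 and 27.6 TPM in library 2. C1qc had 4.07 and 7.02 TPM, Adgre1 0.04 and 0.03 TPM and Cd163 2 and 0 counts. Their GC content was 56.6%, 48.2% and 46.4%, and ratios between the libraries moved with GC content, as described below. The part of GC content in the marker levels was not tested. Slc40a1 itself was higher in library 1 by TPM (0.52 against 0.42), nearly equal by posterior mean TPM (0.75 against 0.73) and nearly equal by scaled counts (1.57 against 1.64 CPM). The part of other cells in it was not tested, and in sorted bulk RNA fewer cells of a type and less RNA per cell cannot be told apart.

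In order of mean TPM the genes ran Fth1, Ftl1, Slc25a37, Steap3, Ncoa4, Tfr2, Tfrc, Slc25a28, Slc11a2 and Slc40a1. Neighbours whose ranges overlapped were Fth1 and Ftl1, Ncoa4 and Tfr2, Tfr2 and Tfrc, and Slc25a28 and Slc11a2. The remaining neighbours were apart in both libraries, by 1.51 times at the least, for Tfrc over Slc25a28 in library 2.

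The leading transcript, the one with the largest share of the gene's TPM, differed between the libraries in 3 of the 7 genes with more than 1 transcript, Ncoa4, Slc11a2 and Slc40a1. That was so for 20.8% of 4718 protein-coding genes with 2 or more transcripts and 50 or more counts in each library. By expected counts 2 of the 7 differed, against 16.7% of such genes, since Slc40a1-201 led Slc40a1 in both libraries. The Slc40a1 change in TPM rests on 5.68 counts of Slc40a1-205 in library 1 and on 37.33% against 37.27% for Slc40a1-202 and Slc40a1-201 in library 2. The leader was not a coding transcript in either library in 3 of the 7, Tfrc, Slc25a37 and Ftl1. The share was 20.5% of such genes whose leaders matched the reference by identifier. The Ftl1 leader was matched by length alone and does not meet that condition.

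**Figure D3:**
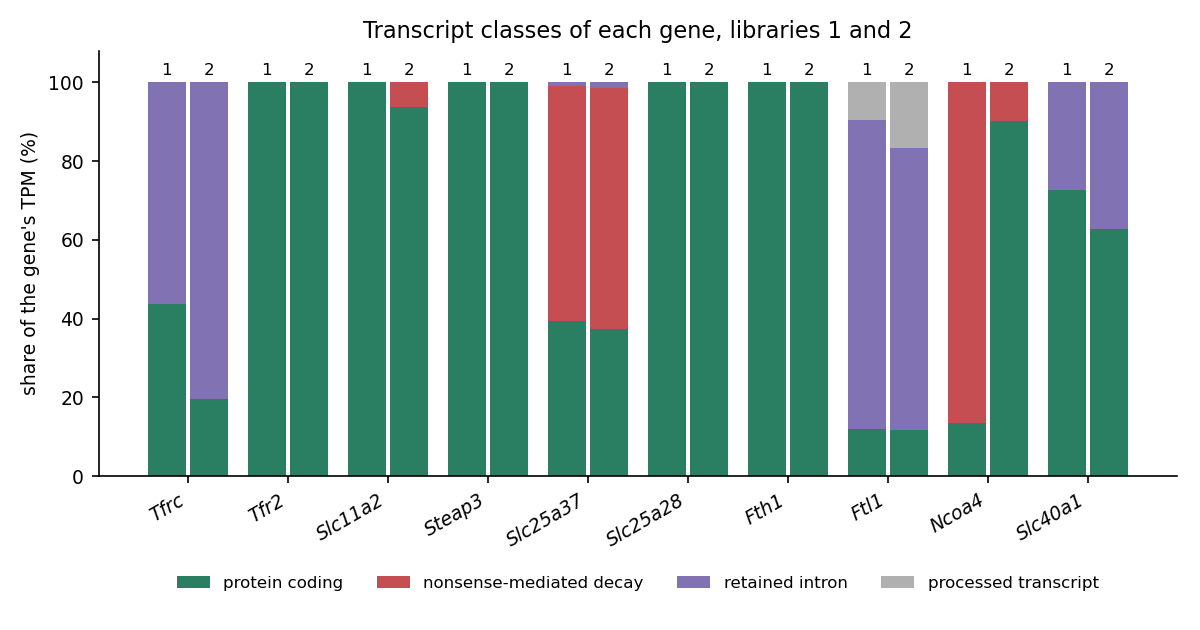
Share of each gene's TPM by annotated transcript class, in percent, with library 1 as the left bar and library 2 as the right bar of each pair. Ncoa4 is 86.6% nonsense-mediated decay in library 1 and 90.1% coding in library 2, Tfrc and Ftl1 are mostly retained intron, and Tfr2, Slc25a28 and Fth1 have a single coding transcript each. The classes of 4 Ftl1 transcripts were matched by length alone.

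Counts of the 2 libraries were compared with an exact binomial test, which sets these libraries, not conditions, against each other. With 1 library on each side its p-values cover counting error only, and no spread between libraries enters them. Expected counts were scaled with edgeR's trimmed mean of M values and p-values adjusted by Benjamini-Hochberg over 10955 genes. Of the 10 genes 9 passed an adjusted p of 0.05, against 44.9% of all genes tested. Higher in library 1 were 4, against 22.5% of genes, and lower in library 1 were 5, against 22.4%. At this depth small differences pass: among 5257 genes with 100 or more counts in each library the median size of the log2 ratio was 0.238.

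The 4 genes higher in library 1 were Fth1, Tfrc, Ncoa4 and Slc25a37. Their log2 ratios of library 1 over library 2 were 0.32 (95% interval 0.31 to 0.33) for Fth1, 0.29 (0.20 to 0.38, exact test, adjusted p = 5.23e-09) for Tfrc, 0.22 (0.14 to 0.31, adjusted p = 2.78e-06) for Ncoa4 and 0.20 (0.19 to 0.22, adjusted p = 1.17e-109) for Slc25a37. The genes lower in library 1 included Slc25a28, with a log2 ratio of -0.50 (-0.71 to -0.29, exact test, adjusted p = 1.10e-05), and Tfr2, with -0.35 (-0.45 to -0.25, adjusted p = 7.68e-11). Slc11a2 had -0.21 (-0.38 to -0.035, exact test, adjusted p = 0.0391), Steap3 -0.13 (-0.19 to -0.08, adjusted p = 1.56e-06) and Ftl1 -0.026 (-0.036 to -0.017, adjusted p = 5.52e-07). Slc40a1 did not pass, with -0.06 (-0.53 to 0.42, exact test, adjusted p = 0.877). The size of the Slc25a28 ratio was reached or passed by 18.6% of the 5257 deeper genes, that of Tfr2 by 34.2% and that of Ftl1 by 94.2%.

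The ratios moved with GC content. Across 5247 of the deeper genes Spearman's rho between GC content and the log2 ratio was -0.22, a description over genes of 2 libraries. The 4 genes higher in library 1 had 42.1% to 53.3% GC and the 5 lower ones 52.6% to 58.3%. After the median ratio of each of 20 GC bins was taken off, 5 of the 10 passed, against 42.5% of 10898 genes: Fth1 (0.40), Slc25a37 (0.26) and Ftl1 (0.045) higher in library 1, and Slc25a28 (-0.41) and Tfr2 (-0.25) lower. Ftl1 thereby changed direction, and Tfrc, Ncoa4, Steap3 and Slc11a2 no longer passed (exact test, adjusted p from 0.208 to 0.439). This correction was chosen after the data were seen.

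In TPM the log2 ratio differed in direction from that of counts for 2 genes, Ncoa4 (0.00, just below 0, against 0.22) and Slc40a1 (0.31 against -0.06). The mean transcript length deposited beside the TPM was 3822 bases in library 1 and 3684 in library 2 for Ncoa4, and 1729 and 2393 bases for Slc40a1, and its part in this was not tested.

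**Figure D4:**
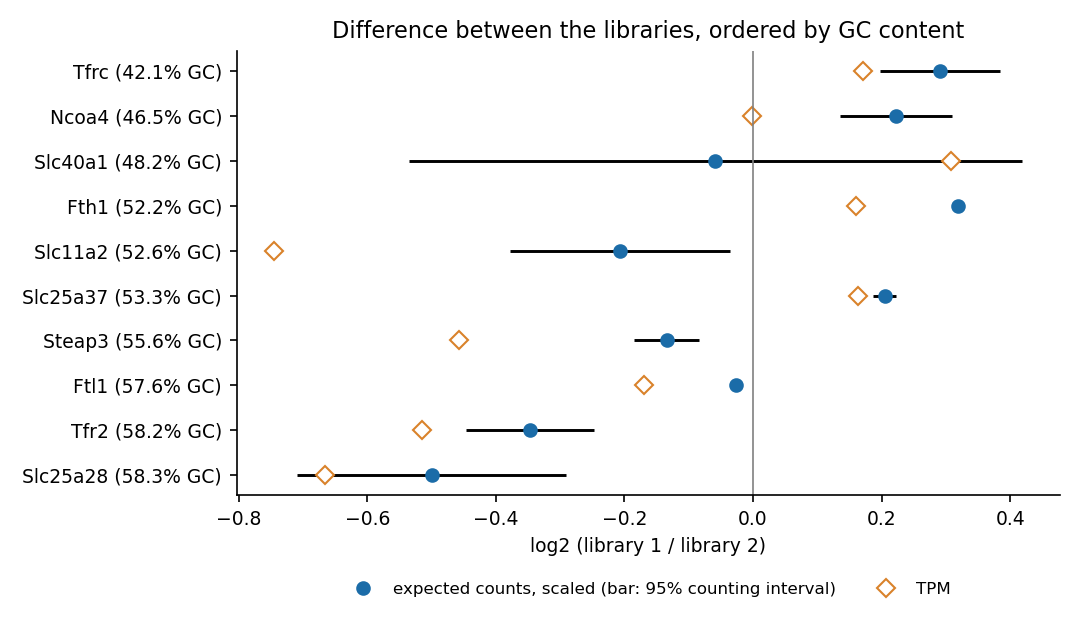
Log2 ratio of library 1 over library 2 for each gene, from the lowest GC content at the top to the highest at the bottom. Filled circles are scaled expected counts with their 95% counting interval, which is narrower than the symbol for Fth1 and Ftl1, and open diamonds are TPM. Tfrc stands at 0.29 and Slc25a28 at -0.50 in counts.

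Beyond the 10 genes, 46 other genes of iron handling were measured in 8 lists. In both libraries 20 of them reached 1 TPM, against 20.0% of protein-coding genes. Most genes of receptor trafficking, cytosolic iron chaperones, mitochondrial iron use and ferritin turnover reached 1 TPM. Among genes of receptor trafficking and endosomal release 4 of 5 reached 1 TPM, led by Snx3, a sorting nexin that recycles the transferrin receptor, with 73.9 and 76.5 TPM. Vps35, of the retromer coat, had 0.57 and 0.70 TPM. Among cytosolic iron chaperones 4 of 6 did, led by Pcbp1, which delivers iron to ferritin, with 150.65 and 168.79 TPM, while Pcbp3 had 0.26 and 0.66 TPM and Pcbp4 0.89 and 0.39 TPM.

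Among genes of mitochondrial iron use 6 of 8 reached 1 TPM, led by Glrx5, a glutaredoxin of iron-sulfur cluster assembly, with 351.63 and 359.19 TPM. Ftmt, mitochondrial ferritin, had 0 counts in either library, where 3 counts would be 0.0586 and 0.0678 CPM, counts scaled to the library total. Among genes of ferritin turnover 4 of 5 did, led by Gabarap, an autophagosome protein, with 52.5 and 73.0 TPM, and Herc2, a ubiquitin ligase known to act on Ncoa4 protein, had 0.34 and 0.30 TPM.

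Uptake routes other than transferrin and the sensing genes were mostly below 1 TPM, which 20.0% of protein-coding genes reached in both libraries. Of 4 ferrireductases besides Steap3, 0 reached 1 TPM, and Steap1, Steap2, Steap4 and Cybrd1 together had 0.02 TPM in each library. Of 6 genes of uptake without the transferrin receptor 1 did, Slc39a8, a metal transporter, with 5.56 and 4.83 TPM, and Slc39a14, Lcn2, Slc22a17, Scara5 and Timd2 had at most 0.37 TPM. Of 8 genes of iron sensing and systemic regulation 1 did, Erfe, the erythroid hormone that lowers hepcidin, with 2.31 and 2.70 TPM. The iron regulatory proteins that bind the elements shown above were low at the mRNA level, with Aco1 at 0.08 and 0.12 TPM on 30 and 33 counts and Ireb2 at 0.06 and 0.05 TPM on 34 and 20 counts. Fbxl5, Hfe, Tmprss6, Bmp6 and Hamp had at most 0.28 TPM, with Hamp at 0 counts. Of 4 iron carriers and ferroxidases 0 reached 1 TPM in both: Trf, transferrin itself, had 2.00 and 0.73 TPM, Ltf at most 0.01 TPM, and Cp and Heph 0 counts.

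Between the libraries 32 of the 46 had enough counts to be tested, and 14 were higher and 8 lower in library 1 by the same exact test, against 22.5% and 22.4% of all genes tested. After the GC bins 15 were higher and 6 lower, against 42.5% of 10898 genes that differed in either direction.

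**Figure D5:**
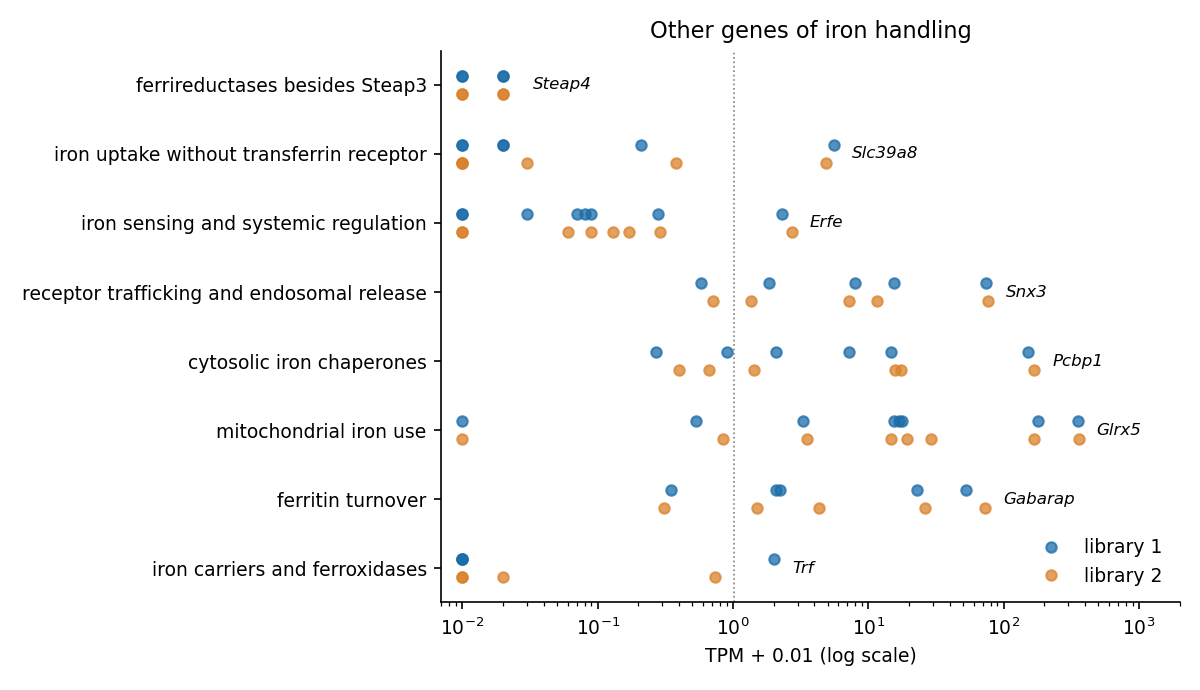
TPM of 46 other genes of iron handling in 8 lists, with 0.01 added, on a log axis, library 1 in blue and library 2 in orange. The gene with the highest mean is named beside each list and the dotted line marks 1 TPM. Glrx5 at 351.63 and 359.19 TPM is the highest, and the lists of ferrireductases and of carriers and ferroxidases hold no gene above 1 TPM in both libraries.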

How the data were processed

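The labels give polyadenylated RNA, paired-end reads and mm10. The listing deposited beside the tables names annotation release M4. The aligner, the quantifier and any use of strand were not given in the sources used here. Columns are named as RSEM names them, per the file headers. The authors deposited expected counts, which divide reads that match several genes, and TPM and FPKM per gene and transcript. The deposited percent of a gene's TPM per transcript gave the transcript shares, and the authors' posterior means served as an alternative; their interval bounds, a score with no stated level, as deposited, stand in a figure.

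The 10 genes and all lists were chosen with earlier results of these data known. Genes named beyond the 10 were the highest, the lowest and those under 1 TPM of each list, and copies that share at least 50% of the 31-base words of either gene and have a count. One gene that this rule names is not reported here. The markers named were picked from their lists after their values were seen. Symbols, positions, transcript classes and sequences came from GENCODE M21 on mm10; 43 of 47 transcripts matched by identifier and 4, of Ftl1, by length alone, and 41 had equal length and identifier. GC content is the mean over a gene's M21 transcripts.

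Expected counts were rounded to whole numbers, and counts of 7 of the 10 genes were whole within 0.01. The test took genes with at least 10 counts over the pair of libraries and was run as a two-sided exact binomial test in scipy 1.17.1 after scaling with edgeR 4.0.16 and, as an alternative, DESeq2 1.42.0 size factors. The test was checked on simulated counts that carried counting error only, so the check does not cover spread between libraries. With 1 group, means ± SD are over 2 libraries, and p-values, intervals and floors of 3 counts cover counting error only. Alternatives were posterior means, FPKM, CPM, coding transcripts alone, other minimums, other scalings, added copies, other element rules, each library alone and, chosen after the data were seen, GC bins.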

Additional observations from a re-analysis of the deposited data

How the results depend on the processing

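No test across conditions was possible with 1 group of 2 libraries, and no paired analysis was possible because there is no second group. Of 64 recomputed main values 51 stayed within the spread between libraries, or within 1.5 times for counts. These include values that leave out 1 of 2 libraries. For levels, shares and ratios they equal the other library's value, which always lies within that spread, and so test nothing. FPKM is TPM times 1 factor per library, so shares and ratios of genes could not move under it either. Nor could the Slc11a2 share of 0% move by counts, posterior means or Watson-Crick pairs alone. CPM, without length correction, put the ferritin share at 87.4% (96.7% in TPM), the Fth1 to Ftl1 ratio at 1.48 and the Slc25a37 to Slc25a28 ratio at 135. Coding transcripts alone put them at 97.2%, 9.07 and 26.7, the Tfrc to Tfr2 ratio at 0.340 and the summed level at 4742 TPM. Fth1, Slc25a28 and Tfr2 each had 1 transcript, a coding one, so that setting could lower only the other gene of each ratio. Posterior means put the summed level at 8271 TPM. The Slc40a1 share in transcripts with an element was 95.1% by counts and 40.0% by posterior means, and that of Slc11a2 27.7% with 1 mismatch and 0% without. GC bins lowered the genes that differ between libraries to 5 of 10, against 42.5% of all genes, and gave Ftl1 a log2 ratio of 0.045 in place of -0.026, and with no count minimum Slc11a2 no longer passed. The causes were not tested. Depth limits Slc40a1, Aco1 and Ireb2, each under 100 counts a library.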
